A study of Mus musculus with 4 samples.

Results

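The NF-kappaB subunits and their IkappaB partners were measured in mouse T-helper 17 (Th17) cells. The 10 genes, taken by symbol, were the 5 subunits Nfkb1, Nfkb2, Rel, Rela and Relb and the 5 IkappaB genes Nfkbia, Nfkbib, Nfkbid, Nfkbie and Nfkbiz, of 50600 genes in each file. All 10 were found once each. The study held 4 RNA-seq libraries of 1 group: primary Th17 cells of strain C57BL/6NJ, obtained under a linked CD4+ T cell differentiation protocol, with no other treatment named, and numbered as biological replicates 1 to 4. Names in the file headers add 72hr and the word sorted, without saying what was sorted. Sex was not collected and the age is unknown per the labels. The design has no second condition, so the comparisons were those between the genes and between the 4 libraries.

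NF-kappaB factors are dimers of Rel-homology proteins that IkappaB proteins hold in the cytoplasm. Signals from the antigen receptor, CD28, and the IL-1 and TNF receptor families activate the IkappaB kinase, which marks the classical IkappaB proteins for destruction and lets the dimers enter the nucleus. A slower, alternative route works through the kinase NIK (Map3k14), which drives the trimming of p100, the Nfkb2 product, to p52. A further IkappaB group (the products of Nfkbid, Nfkbiz and Bcl3) sits in the nucleus and tunes target genes there. In mouse Th17 cells, c-Rel, the Rel product, and IkappaB-zeta, the Nfkbiz product, are known to favour the differentiation of this cell type.

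The signal that marks classical IkappaB proteins for destruction is a short run of residues in which the kinase phosphorylates 2 serines: aspartate, serine, glycine, any 2 residues, serine. A search of the longest coding transcript of each gene (GENCODE M21) found this run in 3 of the 10 genes, Nfkbia, Nfkbib and Nfkbie, and in 1.84% of the 21899 protein-coding genes searched. It was not found in the 5 subunits, in Nfkbid, Nfkbiz or in Bcl3. The coding bases are shown because this run was found in the classical and not in the nuclear IkappaB genes of the sections that follow. That split follows the roles described above and was not made from this search. The capitals mark the codons of the 2 serines. The aspartate was codon 31 in Nfkbia (chr12:55492410-55492445, minus strand), codon 18 in Nfkbib (chr7:28766345-28766380, minus strand) and codon 17 in Nfkbie (chr17:45555980-45556015, plus strand), all in mm10.
Nfkbia: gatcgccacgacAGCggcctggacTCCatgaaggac
Nfkbib: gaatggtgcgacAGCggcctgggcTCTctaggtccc
Nfkbie: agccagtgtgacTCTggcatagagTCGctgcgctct

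Several of these genes are known targets of NF-kappaB, a feedback loop in which the factor renews its own inhibitors. The 250 bases before each RefSeq start site (build GRCm38.p6, the coordinates of mm10) were therefore searched on both strands for the kappaB consensus, a motif of 10 letters. The promoter table matched 7 of the 10 members, and Nfkb1, Relb and Nfkbiz were not in it. A match was found in 5 of those 7, Nfkb2, Nfkbia, Nfkbid, Nfkbie and Rel, and none in Rela or Nfkbib (nor in Bcl3). By window, 7 of the members' 11 windows held a match. A match was held by 7.25% of all 32851 windows of the promoter set and by 8.23% of its 27025 genes. Overlapping matches were merged, and the capitals mark each place. In Nfkbia the match began 29 bases before the start (chr12:55492648-55492696, minus strand). In Nfkb2 all 3 windows held a match. The one shown, at the first start site, had 2 places, 39 and 11 bases before it (chr19:46304678-46304736, plus strand), and the others had 1 place each, 236 and 225 bases before start sites further into the gene. In Nfkbid 1 of 3 windows held 2 places, 226 and 181 bases before a start site inside the gene (chr7:30422160-30422254, plus strand). In Nfkbie the match began 106 bases before the start (chr17:45555574-45555623, plus strand), and in Rel 92 bases before it (chr11:23771031-23771081, minus strand). A match is a run of letters and not a measured binding site.
Nfkbia: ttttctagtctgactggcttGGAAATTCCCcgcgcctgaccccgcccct
Nfkb2: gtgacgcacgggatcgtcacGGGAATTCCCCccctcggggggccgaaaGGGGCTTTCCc
Nfkbid: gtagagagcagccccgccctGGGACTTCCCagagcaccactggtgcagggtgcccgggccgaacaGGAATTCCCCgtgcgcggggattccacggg
Nfkbie: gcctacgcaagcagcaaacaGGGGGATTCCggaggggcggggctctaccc
Rel: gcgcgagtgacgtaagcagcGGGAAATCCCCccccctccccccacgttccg

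Counts per library summed to 34542693, 23673174, 9382661 and 28629187 in replicates 1 to 4, a 3.68-fold range with replicate 3 the shallowest. All 10 T cell and Th17 markers reached 1 TPM or more throughout, with a summed level of 20656 to 24048 TPM. Much of that sum was Il17f, at a mean of 11651 TPM, and the median of the markers was 377.5 TPM. None of the 5 B cell markers reached 1 TPM in every library (sum 0.241 to 0.686 TPM, Ms4a1 at 0 counts). The same held for 6 macrophage and monocyte markers (1.03 to 2.70 TPM, Fcgr1 at 0), of which Cd14 averaged 1.73 TPM. It also held for 6 dendritic cell (0.284 to 0.418 TPM, Clec9a and Siglech at 0) and 6 stromal, endothelial and epithelial markers (0.525 to 1.04 TPM, Cdh5 and Kdr at 0). Of 6 CD8 and NK cell markers, 2 reached 1 TPM in every library (14.2 to 20.5 TPM in sum, mostly Cd8b1, with Ncr1 and Klrb1c at 0). The labels give all 4 libraries the same donor, with separate biosamples. The sex-linked genes differed between them: Xist had 33289, 25056, 110 and 94 counts and the Y-linked Ddx3y 9, 5, 885 and 2515 counts in replicates 1 to 4. The single donor label and these counts do not go together, since 1 animal cannot have given all 4 libraries. How many animals or cultures gave them is not stated, so spreads and p-values measure only the variation between these samples. Between replicates 1 and 2, and between replicates 3 and 4, that variation may be technical. The part of the sex-linked difference in the results was not tested. In bulk RNA of this kind fewer cells of a type and less RNA per cell cannot be told apart.

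Levels are given as TPM, transcript abundance per length on a common library total, computed from the deposited counts and the merged exon length of each gene. All 10 genes reached at least 1 TPM in every library, against 47.6% of the 21764 protein-coding genes. Their counts over the 4 libraries ran from 3851 for Nfkbie to 49587 for Nfkb1, and together they took 0.173% ± 0.00322 of all counts (SD, n = 4). The median of the subunits was 138.9 TPM and that of the IkappaB genes 129.9 TPM, beside 32.0 TPM over the 10367 protein-coding genes with at least 1 TPM in every library.

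**Figure D1:**
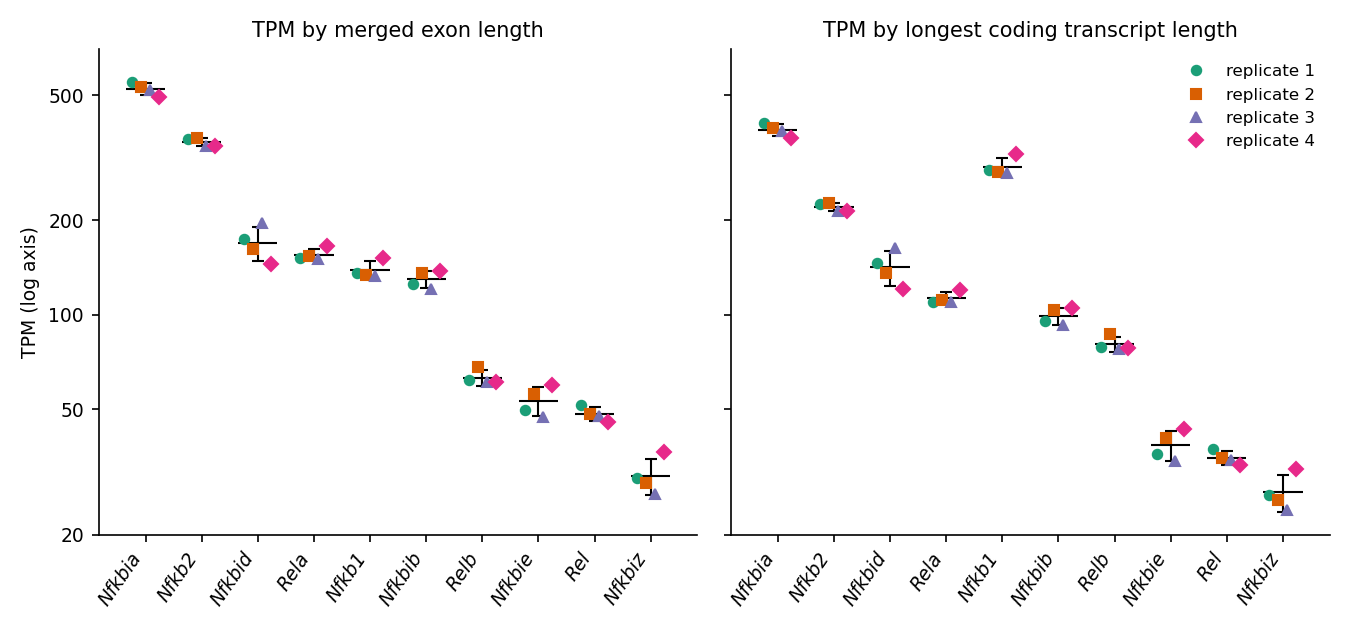
TPM of the 10 genes in each of the 4 libraries on a log axis (points), with the mean as a wide bar and the SD as whiskers, using merged exon length (left) and the length of the longest coding transcript (right). Nfkbia had the highest level on both scales, at 523 and 388 TPM, and Nfkbiz the lowest, at 30.75 and 27.2 TPM, while Nfkb1 moved to second place on the right.

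Among the subunits, Nfkb2 had the highest level on merged exon length. Nfkb2 encodes p100, which acts as an inhibitor until it is trimmed to p52 (ENSMUSG00000025225.14, chromosome 19, 46304737 to 46312090, plus strand, mm10). It had 363, 366, 345 and 345 TPM in replicates 1 to 4, a mean of 354.9 ± 11.1 TPM (SD, n = 4), rank 426 among protein-coding genes. The 4 libraries lay within 1.06-fold of each other, with replicates 1 and 2 above replicates 3 and 4. It made up 46.7% ± 1.24 of the summed TPM of the 5 subunits.

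Nfkb1 encodes p105, the precursor of p50 (ENSMUSG00000028163.17, chromosome 3, 135584655 to 135691547, minus strand). It had 136, 134, 133 and 152 TPM in replicates 1 to 4, a mean of 138.9 ± 8.94 TPM (SD, n = 4), with replicate 4 above the other libraries. This level depends on the length chosen. The merged exons of Nfkb1 span 12061 bases, 2.93 times the 4117 bases of its longest coding transcript. GENCODE M21 gives it the same 12061 merged bases, and 4204 without its 4 transcripts annotated as retained introns. The counts do not separate reads from those introns. The lengths of Nfkb2 differ the other way, with 3289 merged bases in the counted annotation and 3846 in its longest M21 coding transcript. That lowers its level on the coding scale. Reads outside the 3289 bases were not counted for Nfkb2, and any intron reads of Nfkb1 stay in its counts. On the coding scale, counts and length thus do not cover the same bases for either gene. With coding transcript lengths for all genes Nfkb1 had 289, 286, 283 and 324 TPM, a mean of 295 ± 19.1 TPM. On that scale Nfkb1 made up 39.7% ± 1.67 of the subunits' TPM and Nfkb2 29.6% ± 1.20, against 18.25% ± 1.04 and 46.7% ± 1.24 on merged exon length.

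The difference of log2(TPM + 1) between Nfkb1 and Nfkb2 was -1.35 ± 0.12 (SD, n = 4) on merged exon length and 0.42 ± 0.12 on coding transcript length, each with 1 sign in all 4 libraries. The order of these genes thus turned with the length and was the same in all 4 libraries on each scale. In CPM, counts scaled to a common library total with no length correction, Nfkb1 had the highest level of the 10 genes at 511 CPM and Nfkb2 the second at 355.9 CPM.

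Rela encodes p65, the main activating subunit of the classical dimer (ENSMUSG00000024927.7, chromosome 19, 5637483 to 5648130, plus strand). It had 152, 154, 151 and 165 TPM, a mean of 155.6 ± 6.64 TPM (SD, n = 4), with replicate 4 the highest. Its merged exons and longest coding transcript have the same length of 2716 bases. Its mean was still lower with coding transcript lengths, at 113.0 TPM, because the new lengths of all genes rescale the TPM total. Nfkb1 minus Rela was -0.16 ± 0.03 on log2(TPM + 1) with merged exon length and 1.38 ± 0.03 with coding transcript length, so this order also turned with the length.

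Rel encodes c-Rel, the activating subunit most tied to lymphocytes (ENSMUSG00000020275.9, chromosome 11, 23736847 to 23770970, minus strand). It had 51.6, 48.35, 47.6 and 45.7 TPM, a mean of 48.3 ± 2.45 TPM (SD, n = 4), with replicate 1 the highest and replicate 4 the lowest. Rel lay below Rela in every library, by -1.67 ± 0.12 on log2(TPM + 1), a ratio of 0.310. Since Rel transcripts are long (7466 bases of exon), the difference in log2(CPM + 1) was only -0.23. It held 6.35% ± 0.338 of the subunits' TPM, the smallest share.

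Relb encodes the activating partner of p52 in the alternative route (ENSMUSG00000002983.17, chromosome 7, 19606217 to 19629438, minus strand). It had 61.9, 68.3, 61.0 and 61.2 TPM, a mean of 63.1 ± 3.50 TPM (SD, n = 4), with replicate 2 above the other libraries, which lay close together. Its merged exons (3885 bases) are 1.76 times its longest coding transcript (2209 bases), and with coding transcript lengths its mean was 80.6 ± 4.42 TPM. Relb minus Rela was -1.29 ± 0.11 on log2(TPM + 1) and -0.48 ± 0.11 with coding transcript lengths. The partner pair of the alternative route differed more: Nfkb2 minus Relb was 2.47 ± 0.05, and 1.44 ± 0.05 with coding transcript lengths.

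Among the classical IkappaB genes, Nfkbia had the highest level. Nfkbia encodes IkappaB-alpha, the inhibitor that is degraded and resynthesised fastest (ENSMUSG00000021025.8, chromosome 12, 55489410 to 55492647, minus strand), and its coding bases are the first of the serine runs shown above. It had 551, 529.9, 519.5 and 493 TPM, a mean of 523 ± 24.2 TPM (SD, n = 4), rank 248 among protein-coding genes, with replicate 1 the highest and replicate 4 the lowest. With coding transcript lengths the mean was 388 ± 17.7 TPM, again the highest of the 10 genes. Nfkbia made up 57.7% ± 1.19 of the summed TPM of the 5 IkappaB genes.

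Nfkbib encodes IkappaB-beta, which is degraded more slowly (ENSMUSG00000030595.15, chromosome 7, 28758251 to 28767512, minus strand). It had 125, 135, 121 and 138 TPM, a mean of 129.9 ± 8.09 TPM (SD, n = 4), with replicates 2 and 4 above replicates 1 and 3. Its exons share 356 bases with Ccer2 and Sirt2 on the opposite strand, and the counting was set to use strand. Nfkbia lay above it in every library, by 2.00 ± 0.14 on log2(TPM + 1), a ratio of 4.03.

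Nfkbie encodes IkappaB-epsilon, the third classical inhibitor (ENSMUSG00000023947.7, chromosome 17, 45555716 to 45563169, plus strand). It had 49.8, 56.2, 47.4 and 60.0 TPM, a mean of 53.3 ± 5.78 TPM (SD, n = 4), with replicates 2 and 4 above replicates 1 and 3. Nfkbia exceeded it 9.85-fold, a difference of 3.28 ± 0.20 on log2(TPM + 1). The 3 classical inhibitors summed to 706.5 ± 19.9 TPM and the 5 subunits to 761 ± 15.4 TPM, a ratio of 0.929 ± 0.0222 that lay between 0.897 and 0.949 in single libraries. With coding transcript lengths the ratio was 0.706 ± 0.0266. These ratios count transcripts, and protein was not measured.

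Of the nuclear IkappaB genes, Nfkbid encodes IkappaB-NS (ENSMUSG00000036931.14, chromosome 7, 30421732 to 30428746, plus strand), a short protein made mostly of ankyrin repeats. It had 175, 162, 196 and 145 TPM, a mean of 169 ± 21.4 TPM (SD, n = 4), the second level among the 5 IkappaB genes. Replicate 3 was the highest, with a 95% exact Poisson interval of 185 to 206.5 TPM, and replicate 4 the lowest, at 139.7 to 150.2 TPM. These intervals, which cover counting error only, did not overlap. That does not set Nfkbid apart, since among the members only Relb had overlapping intervals in its highest and lowest libraries. Those of Relb were 65.3 to 71.4 TPM in replicate 2 and 56.4 to 65.7 TPM in replicate 3. Even Nfkb2 had 358 to 373 TPM in replicate 2 and 339 to 352 TPM in replicate 4. The share of all tested genes whose intervals did not overlap was not computed. The lack of overlap is therefore not read as a trait of the members. For Nfkbid, replicate 3 was also the shallowest library, and both extremes were libraries with Y-linked counts.

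Nfkbiz encodes IkappaB-zeta, an inducible nuclear cofactor (ENSMUSG00000035356.16, chromosome 16, 55811375 to 55838899, minus strand). It had 30.3, 29.2, 27.0 and 36.6 TPM, a mean of 30.75 ± 4.12 TPM (SD, n = 4), the lowest of the 10 genes and rank 5310 among protein-coding genes. Replicate 4 had the top value and replicate 3 the bottom one, the reverse of Nfkbid. Nfkbid minus Nfkbiz was 2.49, 2.44, 2.81 and 1.96 on log2(TPM + 1) in replicates 1 to 4, a mean of 2.42 ± 0.35 (SD, n = 4). That SD was the largest of the 9 gene pairs compared.

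Bcl3, a nuclear IkappaB paralogue outside the 10 genes, encodes a cofactor of p50 and p52 dimers. It had 78.4, 73.4, 73.4 and 85.7 TPM, a mean of 77.8 ± 5.82 TPM (SD, n = 4). Nfkbid lay above it in every library, by 1.11 ± 0.27 on log2(TPM + 1).

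Each of the 9 gene pairs compared kept 1 sign in 4 of 4 libraries on merged exon length. The exact sign-flip permutation test over the libraries (both tails) gave p = 0.13 for each pair, and 0.13 after Benjamini-Hochberg adjustment over the 9. With 4 libraries no smaller p can be reached, so no pair could pass 0.05. In the order of mean TPM, Nfkbia came before Nfkb2, Nfkbid, Rela, Nfkb1, Nfkbib, Relb, Nfkbie, Rel and Nfkbiz. Of the 9 pairs of neighbours in it, 6 had the same order in every library. Nfkbid and Rela did not, with Nfkbid higher in 3 of 4 libraries (0.11 ± 0.24 on log2(TPM + 1)). Nfkb1 was above Nfkbib in 3 of 4 libraries (0.10 ± 0.07), and Nfkbie above Rel in 2 of 4 (0.14 ± 0.20). With coding transcript lengths Nfkb1 moved up to second place, before Nfkb2, and the other 9 genes kept their order.

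The spread between libraries was tested for each gene with edgeR's quasi-dispersion over the trend at its abundance, upper tail, over 12156 genes. None of the 10 members was called at an adjusted p of 0.05, where 0.00823% of all tested genes were. A wide spread could also go uncalled: Tnfrsf9, a target gene described below, had a 3.14-fold range between libraries and an adjusted p of 0.289. At an unadjusted p of 0.05, 1 of the 10 passed, against 4.90% of all genes, and DESeq2 marked none of the 10 as a dispersion outlier, against 0.521% of 21299 genes. The 1 gene was Nfkbid, with F = 6.45, an unadjusted p of 0.0389 and an adjusted p of 0.988 in edgeR's test across all genes, and 475 genes ranked above it. Nfkbiz had F = 3.84 and an adjusted p of 0.991. In TMM-normalised CPM, which scales libraries to each other, the coefficient of variation was 13.4% for Nfkbid, 12.7% for Nfkbiz and 10.3% for Nfkbie, and between 3.05% and 5.83% for the other 7. The median over tested genes of at least 30 CPM was 5.52%. Counting error alone gives the members 1.03% to 3.76%.

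**Figure D2:**
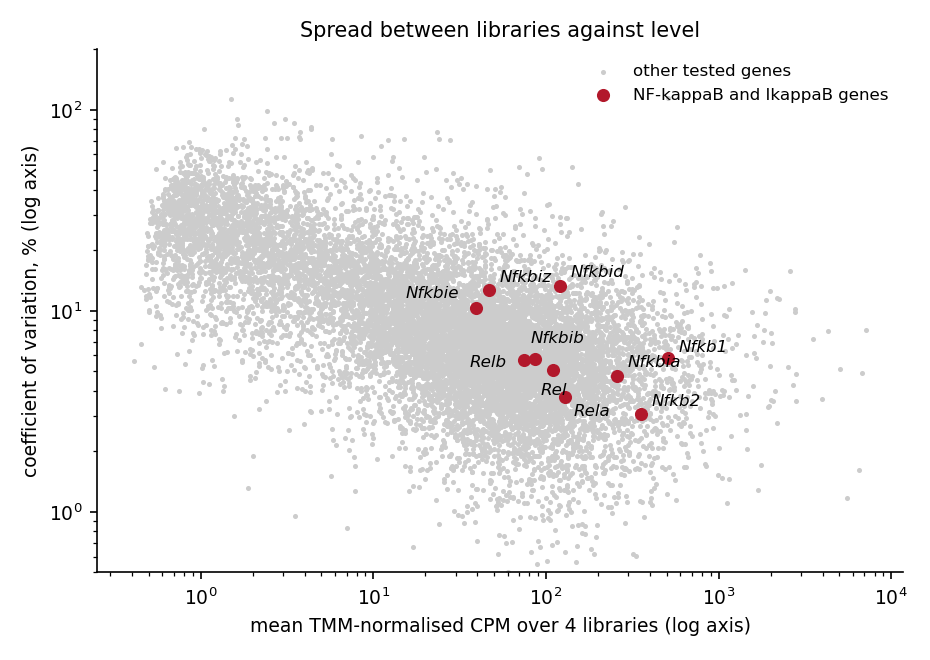
Coefficient of variation over the 4 libraries (percent, log axis) against mean TMM-normalised CPM (log axis) for the 12156 tested genes, with the 10 NF-kappaB and IkappaB genes in red. Nfkbid, Nfkbiz and Nfkbie lay at 13.4%, 12.7% and 10.3%, and the other 7 at 3.05% to 5.83%.

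In TMM-normalised CPM, Nfkbid had 124, 116, 141.5 and 103 CPM in replicates 1 to 4, a 1.38-fold range. Nfkbiz had 46.1, 44.7, 41.8 and 55.5 CPM, a 1.33-fold range. Nfkbie had 36.6, 41.6, 35.4 and 43.9 CPM, a 1.24-fold range. At least 1.25-fold lay between the highest and the lowest library for 2 of the 10 members, against 16.4% of the 6329 tested genes of at least 30 CPM. These 2 were Nfkbid and Nfkbiz, with replicates 3 and 4 as their opposite extremes. The classical Nfkbie lay just under that fold, and the third nuclear gene, Bcl3, had a 1.16-fold range.

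By library, on the same TMM-normalised scale, 5 of the 10 members (Nfkb1, Rela, Nfkbib, Nfkbie and Nfkbiz) were highest in replicate 4, against 33.2% of all tested genes. Nfkbib, Nfkbie and Nfkbiz, 3 of the 10, were lowest in replicate 3, against 34.2%. All 3 were thus highest in replicate 4 and lowest in replicate 3, a pattern that 20.4% of tested genes had. Nfkbid alone, 1 of 10, was highest in replicate 3 and lowest in replicate 4, against 20.6% of tested genes. These shares of 10 genes are given as counts only, with no test. The other 4 members were all lowest in replicate 4, with Nfkbia and Rel highest in replicate 1 and Nfkb2 and Relb highest in replicate 2. The share of all tested genes lowest in replicate 4 was not computed. For Relb this was a near tie, at 71.9 CPM in replicate 4 against 72.9 and 73.0 CPM in replicates 1 and 3. Its lowest TPM was in replicate 3. Nfkb2 had 344 CPM in replicate 4 and 350 CPM in replicate 3.

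**Figure D3:**
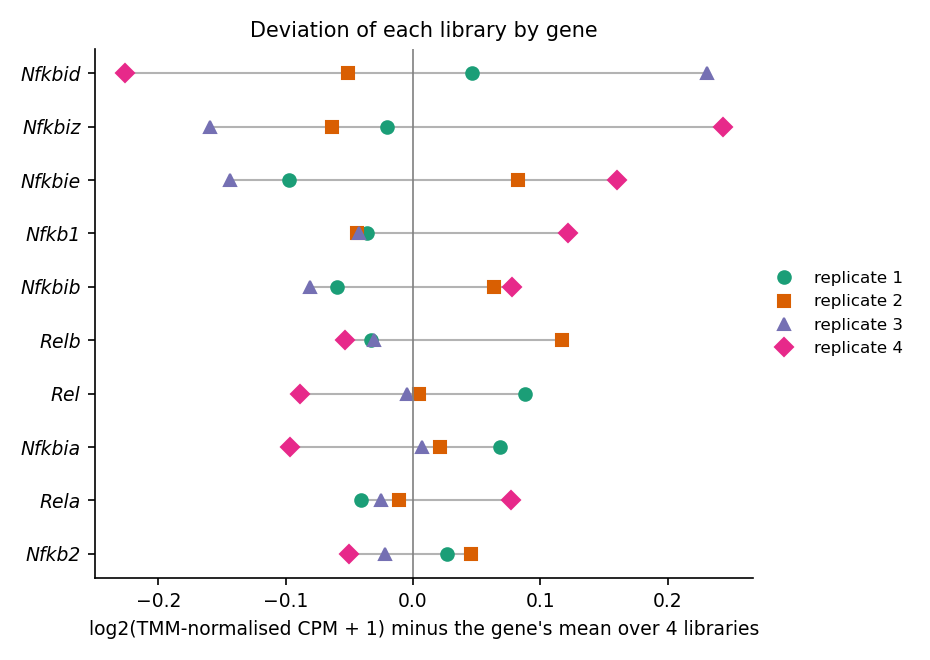
Deviation of each library from the gene's mean in log2(TMM-normalised CPM + 1) for the 10 genes, sorted by their coefficient of variation, with 1 point per library. Nfkbid had replicate 3 at 0.23 and replicate 4 at -0.23, while Nfkbiz had replicate 4 at 0.24 and replicate 3 at -0.16.

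The genes whose profile over the 4 libraries was most like that of Nfkbid, the member with the largest spread for its abundance, were Larp7, Mmgt1 and Rrm2. Their root-mean-square difference from it in mean-centred log2(TMM CPM + 1) was 0.00771, 0.00961 and 0.0104. With 4 libraries such likeness is common: 1380 of 8609 protein-coding genes of at least 10 CPM (16.0%) lay within 0.1 of Nfkbid.

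The genes around the members were described from 8 lists of 68 different genes in all. Of these, 64 had at least 1 TPM in every library, against 47.6% of the 21764 protein-coding genes. Among the 66 that could be tested for spread, edgeR called none, and 7 had an unadjusted p under 0.05, where 4.90% of all tested genes did. DESeq2 marked 2 of them, against 0.521% of all genes: Tnfrsf9 (4-1BB), a target gene, and the receptor gene Tnfrsf18 (GITR), with edgeR adjusted p of 0.289 and 0.445. With no filter on low counts edgeR called both, among 0.592% of 21299 genes. Without replicate 4 it called Tnfrsf9, among 0.165% of 12145 genes. Tnfrsf9 had 134, 159, 94.0 and 301 TPM and Tnfrsf18 264, 278, 203 and 405 TPM in replicates 1 to 4. Both had replicate 4 at the top and replicate 3 at the bottom, as had Nfkbib, Nfkbie and Nfkbiz and 20.4% of tested genes.

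**Figure D4:**
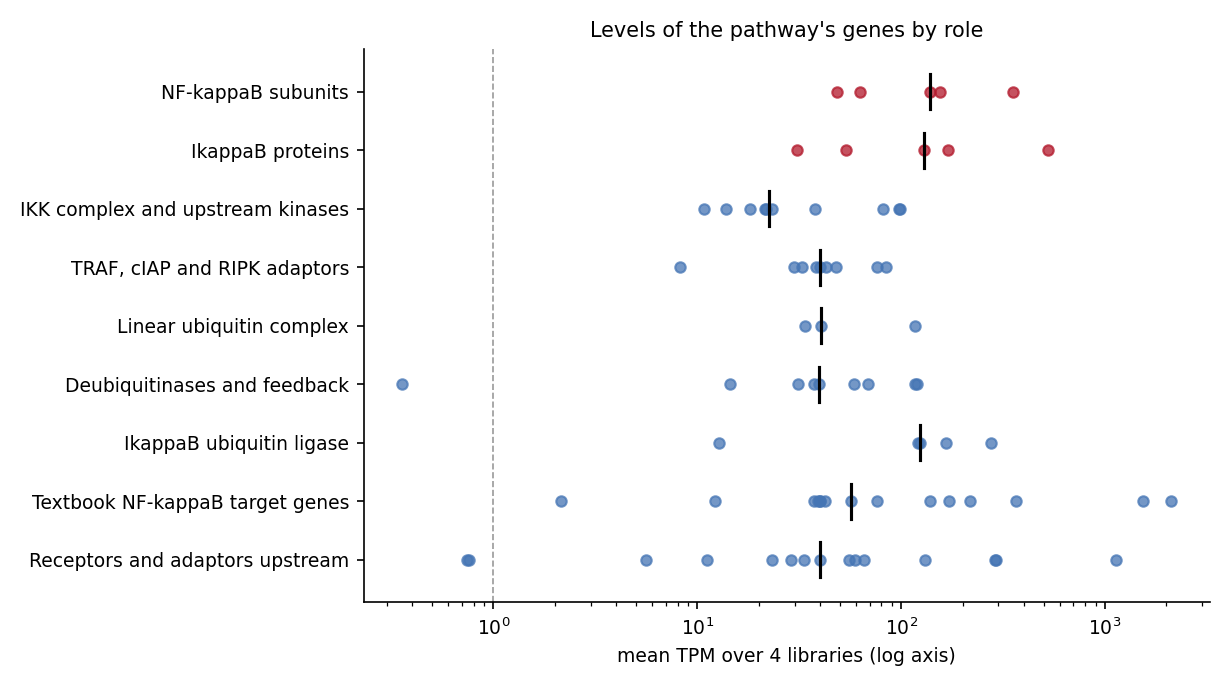
Mean TPM over the 4 libraries (log axis) of the members and of the genes of 7 pathway lists, by role, on merged exon length, with 1 point per gene, the median of each list as a black bar and a dashed line at 1 TPM. The 10 members (red) lay between 30.75 and 523 TPM, and the medians of the 7 other lists between 22.5 TPM for the kinases and 123 TPM for the ubiquitin ligase.

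Upstream receptors and adaptors came first in this chain, with 13 of 15 genes at 1 TPM or more in every library (median 39.9 TPM). Tnfrsf4 (OX40), Cd28, Tnfrsf18 and Myd88, an adaptor of the IL-1 receptor family, averaged 1136 ± 115, 293 ± 25.8, 287 ± 85.0 and 130.7 ± 10.8 TPM. Cd40 and Ltbr, known in antigen-presenting and stromal cells, were the other two, at 0.742 and 0.762 TPM. Of the arm that links the antigen receptor to NF-kappaB, the protease Malt1 averaged 374 ± 24.2 TPM, Casp8 176 ± 17.4 TPM and the kinase Prkcq 74.7 ± 2.92 TPM. All 9 TRAF, cIAP and RIPK adaptors were detected (median 40.1 TPM), with Traf6, Birc3, Ripk1 and Traf3 at 84.1 ± 6.34, 75.9 ± 2.80, 48.0 ± 1.54 and 42.7 ± 2.03 TPM.

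All 10 genes of the kinase list were detected, with a median of 22.5 TPM, below that of either group of members. Map3k7 (TAK1), its partner Tab2, the IkappaB kinase subunit Chuk and Tbk1 averaged 99.1 ± 9.89, 98.0 ± 4.76, 81.7 ± 4.93 and 37.9 ± 1.91 TPM. The linear ubiquitin complex was detected in full (3 of 3, median 40.6 TPM), with Rbck1 at 117 ± 4.98, Rnf31 at 40.6 ± 3.36 and Sharpin at 33.9 ± 2.40 TPM. The ligase that recognises the phosphorylated serine run was also complete (5 of 5, median 123 TPM). Its core genes Skp1a, Rbx1 and Cul1 averaged 277 ± 13.5, 123 ± 5.10 and 121 ± 5.75 TPM. Of its recognition subunits, Fbxw11 averaged 165 ± 12.7 TPM and Btrc 12.8 ± 0.624 TPM.

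Feedback regulators were detected in 8 of 9 genes (median 39.4 TPM). Otulin, Tnip1, Tnip2 and Tax1bp1 averaged 119 ± 1.92, 116 ± 12.6, 68.7 ± 0.702 and 58.6 ± 3.74 TPM, and Tnip3 lay lowest at 0.356 ± 0.102 TPM. Of 15 textbook target genes, which act downstream, 14 were detected (median 56.4 TPM). The cytokine Lta had 2114 ± 346 TPM, Il2ra 1539 ± 63.5 TPM, Tnf 365 ± 24.1 TPM and the survival gene Bcl2l1 217 ± 6.81 TPM. The member Nfkbia, at 523 ± 24.2 TPM, lay between Il2ra and Tnf. Lta was the one of these 4 with a library apart, at 2631 TPM in replicate 3 against 1898 to 1977 TPM in the others.

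The levels of the pathway genes above are on merged exon length, and 12 of the 68 moved by over 1.5 times with coding transcript lengths. These moves include the rescaling of the TPM total by the new lengths of all genes. The IkappaB kinase subunit Ikbkb had 63.0 TPM on coding transcript length and 18.1 TPM on merged exon length, which puts it among the 4 highest of the kinase list in place of Tbk1. Traf1 and Traf2, at 74.7 and 36.1 TPM, likewise took the places of Ripk1 and Traf3. Tax1bp1 had 129 TPM and Sharpin 53.4 TPM on coding transcript length. The median of the target list was 94.9 TPM on that scale, and that of the kinase list 31.7 TPM.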

How the data were processed

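RNA-seq of 4 Th17 libraries was analysed. The authors' deposited values were raw counts of read pairs for each gene. Per the file headers, the exons were those of GENCODE mouse release 13 and the counter was featureCounts 1.4.6-p4. Pairs were counted with both mates aligned and the reverse-stranded setting, and reads that map to several places or overlap several genes were not counted, per the file headers. The header names point to STAR as the aligner (version not given in the sources used here). The build is mm10 per the labels. The labels call the assay total RNA-seq, but the linked protocol is named for polyadenylated RNA.

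Symbols came from GENCODE release M21, which matched 50376 of 50600 genes; the other 224 held 0.0104% of the counts. No member shared same-strand exon bases with another gene. TPM were computed from the counts and the Length column, or from the longest coding transcript. The spread between libraries was tested with edgeR 4.0.16 (TMM, filterByExpr, intercept only, Benjamini-Hochberg over all genes) in R 4.3.3. The check of this test on simulated data gave every gene the spread of the trend. It tried no change as small as those of the members. DESeq2 1.42.0, other filters, pseudocounts (1 in the main analysis, 0.1 and 5 as alternatives), lengths and libraries left out were alternatives. Totals ran from 9382661 to 34542693 counts. Intervals are exact Poisson at 95% and, like the floor of 3 counts for a count of 0, cover counting error only.

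Named were all 10 members and Bcl3, the 4 highest genes of each pathway list (1 is not reported here), list genes called for spread (none), and the 3 genes most like the most variable member. Tnfrsf9, Ikbkb, Traf1, Traf2, Tnip3, Cd40, Ltbr and Btrc were named after their values were seen. The members and lists were chosen with earlier results of these data known.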

Additional observations from a re-analysis of the deposited data

Results flagged for a closer look

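In 4 of 42 genes examined, members and named pathway genes, 1 library stood apart from the other 3, its gap to the nearest of them being more than Dixon's 95% limit of the whole range. Chance flags about 1 in 20 groups. Nfkb1 had 152 TPM in replicate 4 against 133 to 136 TPM in the others. Relb had 68.3 TPM in replicate 2 against 61.0 to 61.9 TPM. Rbck1, of the linear ubiquitin complex, had 110 TPM in replicate 3 against 119 to 120 TPM. Lta had 2631 TPM in replicate 3 against 1898 to 1977 TPM.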

How the results depend on the processing

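The count of members called for spread was 0 under all 8 alternatives, each of the 9 gene pairs had 1 sign over the libraries within every alternative, and all 10 members were detected at each limit tried. Neighbours with 1 order in every library numbered 5 to 7, and 6 to 7 with each library left out. Length decided the values that changed sign. In CPM without length, Nfkb1 minus Nfkb2 was 0.52, Nfkb1 minus Rela 1.98, Nfkbia minus Nfkb2 -0.47, Nfkbid minus Rela -0.10, Rela minus Nfkb1 -1.98 and Nfkbie minus Rel -1.46. With coding transcript lengths, an alternative chosen after seeing the data, Nfkb1 minus Nfkb2 was 0.42, Nfkb1 minus Rela 1.38 and Rela minus Nfkb1 -1.38. Over all genes, 1 was called for spread, but 126 without a filter on low counts, 5 with a mean count of at least 50, 20 without replicate 4 and 111 by DESeq2; the cause was not tested. No paired analysis was possible because the libraries form 1 group. Replicate 3, the shallowest, limits the low members most, with 327 counts for Nfkbie.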
